A study of Gallus gallus with 9 samples.

Results

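The 10 genes described here are receptors and transcription factors of blood vessel endothelium, with the adaptor LMO2 and the secreted protein EGFL7. They are TEK, KDR, FLT1, FLT4, FLI1, ERG, ETS1, TAL1, LMO2 and EGFL7. They were chosen by name from the platform's gene symbols, with earlier results of these data known, and all 10 were measured, out of 13009 genes. Where a gene had several probe sets, the one with the highest mean over all 9 arrays stood for it. Expression was measured on Affymetrix GeneChip Chicken Genome Arrays in 2 fractions of cells that magnetic sorting (MACS) had separated from chicken embryonic gonads at 6.5 days, in embryos labelled WL. The PGC fraction (PGC is the usual short form of primordial germ cell) had 3 arrays and the GSC fraction, whose name the labels do not spell out, had 6. No treatment or allele is given for either fraction, and the sources used here give neither the antigen of the sort nor the sex of the embryos. Whether replicates were independent pools is not stated either, so a p-value here covers variation among preparations that may be technical.

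Endothelial cells line the vessels that grow into the young gonad and the mesonephros beside it. Their growth and survival depend on receptor tyrosine kinases at the surface, which bind vascular endothelial growth factors (VEGFs) and angiopoietins. Inside the cell, ETS family transcription factors such as FLI1, ERG and ETS1 drive the endothelial genes. TAL1, a basic helix-loop-helix factor, and LMO2, a LIM-domain adaptor that bridges DNA-binding proteins, act in one complex in early blood and endothelial precursors. In chicken embryos primordial germ cells reach the gonad through the bloodstream, so vessels and germ cells share a history in this tissue.

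The sorted fractions matched their labels at the germ cell end. DDX4, the germ cell RNA helicase, measured 9.40, 9.51 and 8.36 in PGC replicates 1, 2 and 3, against 4.31 to 4.82 in the 6 GSC arrays (log2 scale, as are all levels below). All 8 measured germ cell markers were higher in PGC. NR5A1, a nuclear receptor of gonadal somatic cells, measured 5.48, 5.81 and 6.84 in these PGC arrays, against 6.93 to 7.32 in GSC. PGC replicate 3 had the least DDX4 and the most NR5A1 of the PGC arrays, and its correlation with GSC arrays over all probe sets was 0.956 to 0.969, where that of PGC replicates 1 and 2 was 0.9301 to 0.9504. The defining endothelial gene CDH5, which encodes VE-cadherin, measured 5.19, 6.99 and 7.13 in PGC and 7.46 to 8.43 in GSC. Endothelial transcripts were thus present in both fractions.

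Of the 10 genes, 9 fell in the PGC fraction and 0 rose, at an adjusted p under 0.05 in limma fitted over all genes. The background was 19.5% of all genes lower and 22.5% higher by the same rule. Some values lay below the reporter mark, the 95th percentile of 57 reporter probe sets that match no chicken gene (2.88). The 6 genes TEK, LMO2, KDR, FLI1, EGFL7 and ERG had fitted falls of 2-fold or more, where 6.06% of all genes did. With values of the dimmer fraction below the mark set at the mark, which was done after the values had been seen, 5 of these were at least 2-fold lower, ERG no longer among them, where 5.72% of all genes were. The median log2 fold change of the 10 was -1.31 as fitted and -1.14 with values set at the mark, against -0.02 as fitted over all genes. In 7 of the 10 the 3 PGC arrays lay below all 6 GSC arrays, which held for 16.7% of all genes. In bulk samples such as these, fewer endothelial cells and less RNA per cell cannot be told apart.

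**Figure D1:**
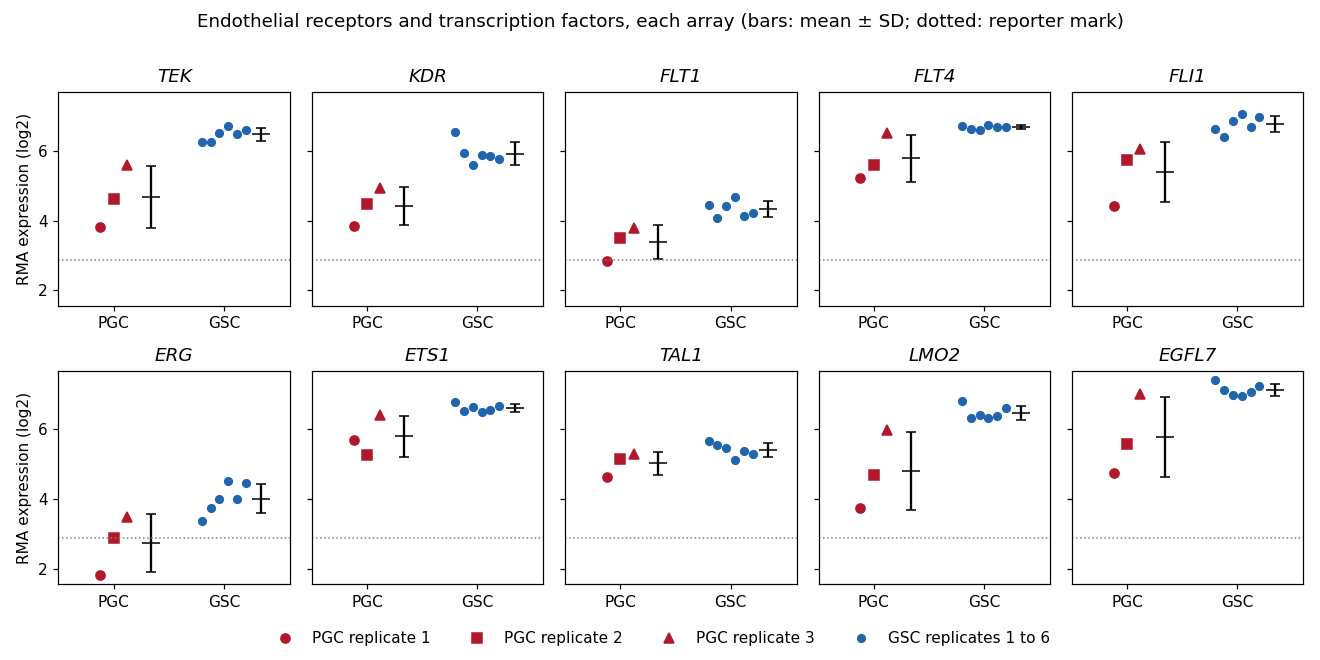
Expression (log2, vertical axis) of each of the 10 genes on the 3 PGC arrays (red, 1 symbol per replicate) and the 6 GSC arrays (blue), with mean ± SD as bars and the 95th percentile of the reporter probe sets, 2.88, as a dotted line. PGC values lie below all GSC values for 7 genes and overlap them for ERG, TAL1 and EGFL7.

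Among the receptors, TEK showed the largest fitted fall on the probe sets that stood for the genes. Some other KDR probe sets gave larger falls (log2 fold change down to -2.28). The other TEK probe set was called lower too (-1.34). TEK, also called TIE2, is the receptor kinase that binds angiopoietins. It measured 3.81, 4.62 and 5.59 in PGC replicates 1, 2 and 3, and 6.24 at the lowest, 6.50 at the median and 6.70 at the highest in GSC. Every PGC array lay below every GSC array, with a gap of 0.65 between the nearest pair. TEK averaged 4.67 ± 0.89 in the 3 PGC arrays and 6.47 ± 0.19 in the 6 GSC arrays (SD), which is 3.47-fold lower (log2 fold change -1.79, SE 0.29, limma adjusted p = 5.497e-04).

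KDR, or VEGFR2, is the main signalling receptor for VEGFA in endothelium. Its values were 3.83, 4.48 and 4.94 in PGC and 5.59, 5.86 and 6.52 (lowest, median and highest) in GSC. The groups did not overlap, and the highest value belonged to GSC replicate 1, which stood apart from the other GSC arrays on this probe set. KDR fell 2.83-fold (log2 fold change -1.502, SE 0.24, limma adjusted p = 4.654e-04), with a log2 fold change of -1.38 without GSC replicate 1. It had 5 probe sets, and all 5 were called lower, with log2 fold changes of -2.28 to -1.33. The probe set that stood for the gene gave one of the smaller falls (the rule went by brightness alone).

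FLT1, or VEGFR1, binds VEGFA tightly and in its soluble form acts as a trap for it. Its PGC values were near the reporter mark. Its values were 2.85, 3.51 and 3.79 in PGC and 4.07, 4.32 and 4.69 (lowest, median and highest) in GSC, without overlap. The PGC replicate 1 value lies below the mark, so FLT1 was at least 1.91-fold lower (log2 fold change -0.95 ± 0.20 SE, limma adjusted p = 0.0026). Here and below, such a fold allows for the mark alone and not for sampling error. The 2 other FLT1 probe sets were below the mark on all 9 arrays and were not called.

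FLT4, or VEGFR3, is the receptor for VEGFC and VEGFD and is best known for lymphatic vessels. It measured 5.21, 5.60 and 6.52 in PGC and 6.59, 6.67 and 6.75 in GSC. PGC replicates 1 and 2 lay well below the narrow GSC range, whereas PGC replicate 3 came within 0.07 of the lowest GSC array. FLT4 fell by 0.89 ± 0.22 (SE, limma adjusted p = 0.0066), and 1 of its 5 probe sets was called. A second probe set above the mark on all 9 arrays gave 0.06 and was not called, the other 3 lay below the mark on all 9 arrays, and with the mean of all 5 the change was -0.27 and not called. The fall of FLT4 therefore rests on 1 probe set.

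Changes of related genes were compared by subtracting one gene from another on each array, in 7 pairs. The 4 pairs with FLT1 or ERG are not given, since each rests on a PGC value below the mark. KDR minus FLT4 was -1.38, -1.13 and -1.58 in the PGC arrays and -0.999 to -0.184 in GSC, without overlap. The difference of 0.61 between the 2 changes did not pass (two-sided exact permutation adjusted p = 0.0556 over the 7 pairs). Its raw p of 0.0238 is the smallest that the 84 ways of this test allow. After adjustment over 7 pairs, even that p passes only if enough other pairs reach it too. Not passing therefore does not show that the 2 changes were alike.

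All 3 ETS factors fell. FLI1, which maintains endothelial junction and identity genes, measured 4.42, 5.73 and 6.04 in PGC and 6.40, 6.77 and 7.03 (lowest, median and highest) in GSC. The groups did not overlap, with PGC replicate 1 far below the other arrays. FLI1 averaged 5.40 ± 0.86 in the 3 PGC arrays and 6.76 ± 0.24 in the 6 GSC arrays (SD) and fell by 1.36 ± 0.29 (SE, limma adjusted p = 0.0031), or 2.57-fold, and by 0.87 without PGC replicate 1. Its sole probe set carries the manufacturer's suffix for probes that can match several transcripts, as do both TEK probe sets, so other transcripts may add to these values.

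ERG, a close relative of FLI1 expressed in most endothelial cells, was at 1.84, 2.90 and 3.49 in PGC and 3.38, 4.01 and 4.52 in GSC. PGC replicate 3 exceeded the lowest GSC array, replicate 1, so the groups overlap, and PGC replicate 1 lies below the mark. ERG was at least 1.91-fold lower (log2 fold change -1.28 ± 0.33 SE, limma adjusted p = 0.0093), and the change was -0.83 without PGC replicate 1. The other ERG probe set was called lower too, but lay below the mark on all 9 arrays, so no fold is given for it.

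ETS1, which endothelial cells share with lymphocytes and mesenchyme, was at 5.71, 5.28 and 6.42 in PGC and 6.49, 6.59 and 6.80 in GSC. It was the one gene of the 10 whose lowest PGC value came from replicate 2 and not replicate 1. ETS1 fell by 0.81 ± 0.20 (SE, limma adjusted p = 0.0064), or 1.76-fold. Of its 6 probe sets 2 were called (-0.81 and -1.38), 2 above the mark were not called (-0.57 and -0.31), and 2 lay below the mark on all 9 arrays. The changes of FLI1 and ETS1 differed by 0.55, which did not pass (exact permutation adjusted p = 0.400 over the 7 pairs).

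TAL1 was the gene of the 10 that did not pass. It measured 4.65, 5.15 and 5.29 in PGC and 5.12, 5.42 and 5.66 in GSC, and PGC replicates 2 and 3 lay within the GSC range. Its log2 fold change was -0.39 ± 0.16 (SE, limma adjusted p = 0.072), with a 95% interval of -0.73 to -0.04 before adjustment, and none of its 4 probe sets was called. It was called without PGC replicate 3 (-0.52, limma adjusted p = 0.0211) or without GSC replicate 4 (-0.44, 0.0447), and was -0.19 without PGC replicate 1.

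LMO2, the partner of TAL1, had one of the larger falls. It measured 3.77, 4.70 and 5.97 in PGC and 6.32, 6.40 and 6.80 in GSC, without overlap. LMO2 averaged 4.81 ± 1.11 in the 3 PGC arrays and 6.47 ± 0.19 in the 6 GSC arrays (SD) and fell by 1.66 ± 0.35 (SE, limma adjusted p = 0.0029), or 3.16-fold, and both of its probe sets were called. LMO2 minus TAL1 was -0.88, -0.45 and 0.68 in PGC and 0.75 to 1.32 in GSC, without overlap. The difference of 1.28 between the 2 changes did not pass (exact permutation adjusted p = 0.0556 over the 7 pairs). Its raw p in this test was again the smallest allowed, 0.0238, so not passing does not show that the changes were alike.

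EGFL7, a protein that endothelial cells secrete into the matrix around forming vessels, varied most within PGC. It measured 4.75, 5.59 and 7.01 in PGC and 6.96, 7.10 and 7.41 in GSC. PGC replicate 3 lay within the GSC range, above GSC replicates 3 and 4, while PGC replicate 1 was 2.38 below the GSC mean. EGFL7 fell by 1.35 ± 0.36 (SE, limma adjusted p = 0.0107), or 2.55-fold, and by 0.84 without PGC replicate 1. Of its 5 probe sets 3 were called lower, and the mean of all 5 gave -0.74.

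**Figure D2:**
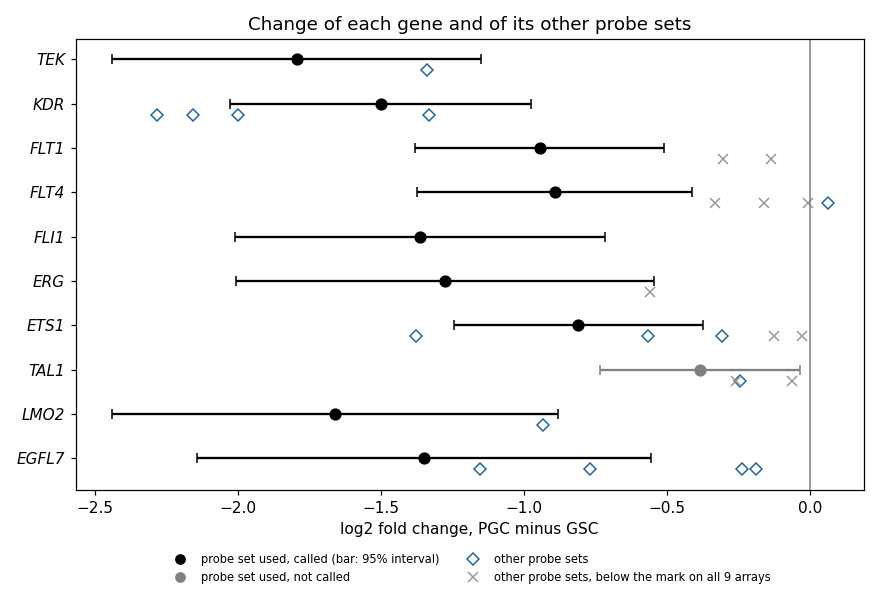
Log2 fold change, PGC minus GSC, of the probe set that stood for each gene (circles with 95% intervals before adjustment, black where called) and of the gene's other probe sets (diamonds, or crosses where all 9 arrays were below the reporter mark). KDR probe sets all lie at or left of -1.33, while the other probe sets of FLT4 lie between -0.33 and 0.06.

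Counted over probe sets, 19 of the 35 with one of the 10 symbols were called lower and 0 higher, against 14.6% lower and 13.8% higher over all 38439. Of the 35, 10 lay below the mark on all 9 arrays. The 3 probe sets of these genes above the mark on all 9 arrays but not called, beside that of TAL1, belonged to FLT4 and ETS1.

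The 3 PGC preparations differed from each other more than the 6 GSC preparations did in all 10 genes (SD 0.34 to 1.14 in PGC and 0.05 to 0.43 in GSC), so limma's pooled standard errors are too small for the PGC mean. The PGC SD was also the larger one in 66.9% of all genes and in 75.6% of all genes called lower. PGC replicate 3 was the highest PGC array in 10 of the 10 genes, and in 65.8% of all genes called lower. PGC replicate 1 was the lowest in 9 of 10, and how often this held among all genes called lower was not counted. The median difference of the 10 genes from the GSC mean was -2.13 in PGC replicate 1, -1.23 in replicate 2 and -0.52 in replicate 3. The same medians were -2.12, -1.91 and -0.45 for 11 gonadal somatic markers, 4.14, 4.12 and 3.36 for the 8 germ cell markers, and between -0.03 and 0.01 over all genes. Without PGC replicate 3, all 10 genes were called lower. That fit also called more of all 13009 genes lower, 2983 against 2543 in the main fit. The part of PGC replicate 3 in the spread of the endothelial genes beyond these values was not tested.

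**Figure D3:**
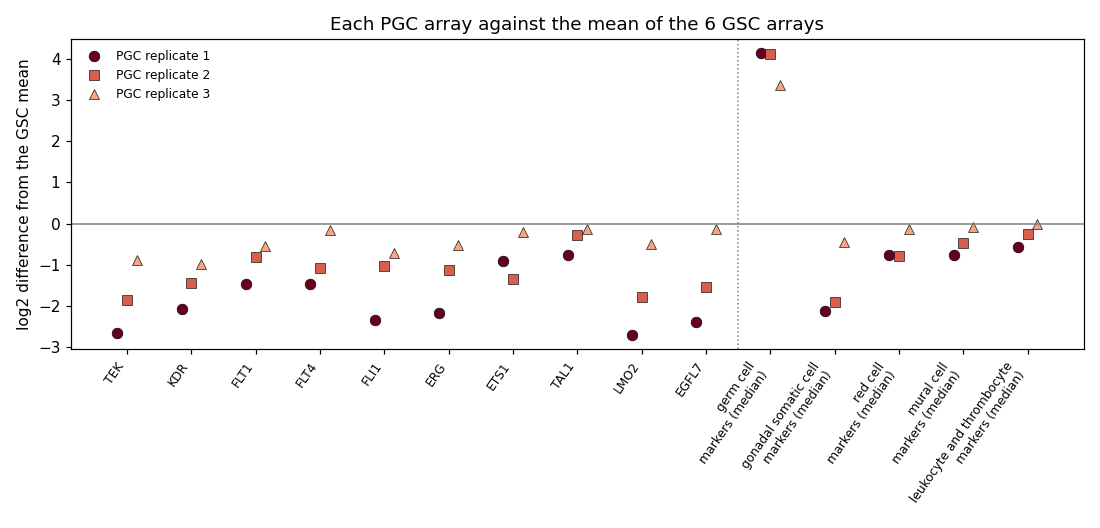
Difference (log2) of each PGC array from the mean of the 6 GSC arrays, for the 10 genes on the left and as the median over 5 marker lists on the right. PGC replicate 3 (triangles) lies nearest to 0 for every one of the 10 genes, for the gonadal somatic markers (-0.45) and for the germ cell markers (3.36).

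Within GSC, the probe sets that stood for the 10 genes peaked in 2 of the 6 arrays. How often genes in general peaked in these 2 arrays was not counted. TEK, FLT1, FLT4, FLI1 and ERG were highest in GSC replicate 4, and KDR, ETS1, TAL1, LMO2 and EGFL7 in GSC replicate 1. TEK and ERG were lowest of all GSC arrays in that same replicate 1, TEK by little (6.24, against 6.25 in replicate 2). Other probe sets did not always follow. The other LMO2 probe set also peaked in GSC replicate 1 (5.26) and the other TEK probe set in replicate 4 (3.91). However, a further ETS1 probe set peaked in GSC replicate 6 (5.97) and a further EGFL7 probe set in replicate 3 (6.76). Red cell markers, 11 measured with TAL1 among them, also had their highest mean in GSC replicate 1 (8.21, against 7.63 to 7.93 in the other GSC arrays). The part of red cell RNA in the GSC replicate 1 values was not tested.

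The ligands of these receptors fell alongside them. Of 13 measured genes of VEGF and angiopoietin signalling other than the receptors above, 9 fell, 0 rose and 4 did not pass. Over all genes, 19.5% were lower and 22.5% higher by the same rule. The median log2 fold change of the 13 was -0.77 as fitted and -0.61 with values set at the mark. VEGFC, a ligand of FLT4 and KDR, measured 4.34, 4.45 and 5.35 in PGC and 5.90, 6.25 and 6.30 in GSC and fell by 1.45 ± 0.20 (SE). VEGFD, the other FLT4 ligand, measured 3.12, 3.22 and 3.99 in PGC and 4.62, 4.78 and 4.93 in GSC and fell by 1.34 ± 0.18. Both pairs of groups were free of overlap. VEGFA was dim, below the mark in 2 of 3 PGC arrays, and was at least 1.37-fold lower, a call lost without PGC replicate 1 (-0.49, limma adjusted p = 0.0729). PGF is not listed by the annotation and was not analysed here.

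Of the TEK ligands, ANGPT1, the activating ligand made by cells around the vessel, was at least 2.13-fold lower, and ANGPT2, the context-dependent ligand made by endothelium, at least 2.66-fold. ANGPT1 measured 3.04, 2.49 and 2.38 in PGC and 3.50, 4.15 and 4.31 in GSC. The groups did not overlap, and PGC replicates 2 and 3 lay below the mark. ANGPT2 measured 2.63, 3.51 and 3.53 in PGC and 4.16, 4.76 and 5.35 in GSC. ANGPT4, below the mark in 2 PGC arrays, was at least 1.47-fold lower.

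The partners of the receptors were less uniform. PLXND1, a semaphorin receptor of endothelium, fell by 1.12 ± 0.17 (SE). PTPRB, the phosphatase that acts on TEK, was at least 1.48-fold lower, a call lost without PGC replicate 1 (limma adjusted p = 0.0529) or 2 (0.0551). TIE1, the relative of TEK that pairs with it, was at 4.15, 4.56 and 5.49 in PGC and 5.14, 5.29 and 5.79 in GSC and did not pass (-0.63, limma adjusted p = 0.0656). Without PGC replicate 3, TIE1 was -1.01 (limma adjusted p = 6.931e-04). Of the VEGF co-receptors, NRP2 fell by 0.44, though not when PGC replicate 1 or 2 was left out (limma adjusted p = 0.0638 and 0.0657), and NRP1 did not pass (-0.61, limma adjusted p = 0.0668), though it did without PGC replicate 2 or GSC replicate 2 (limma adjusted p = 0.0397 and 0.0209). Without PGC replicate 1, 5 of the 13 genes fell, and 1914 of all 13009 genes did, against 2543 in the main fit.

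Of 17 measured endothelial surface and junction genes, 11 fell, 0 rose and 6 did not pass, where 19.5% of all genes fell and 22.5% rose. Their median was -0.65 as fitted and -0.38 with values set at the mark. CDH5 fell by 1.59 ± 0.38 (SE, limma adjusted p = 0.0060) and CLDN5, a claudin of endothelial tight junctions, by 1.39 ± 0.34 (0.97 and 0.90 without PGC replicate 1). ENG, a TGF-beta co-receptor, fell by 1.06, S1PR1, a receptor for a blood-borne lipid and below the mark in 1 PGC array, was at least 2.04-fold lower, and VWF, a clotting factor stored in endothelium, fell by 1.02 (0.44 as the mean of its 3 probe sets). PECAM1, an adhesion molecule of endothelial contacts, measured 3.88, 4.28 and 3.81 in PGC and 4.54, 4.82 and 5.61 in GSC. PECAM1 fell by 0.98 ± 0.24 (SE, limma adjusted p = 0.0069), on a probe set that can match several transcripts. Of the 6 genes that did not pass, ROBO4, EMCN, MMRN2 and LYVE1 were below the mark on all 9 arrays. STAB1 was below it in all 6 GSC arrays and 2 PGC arrays. TM4SF18 was well above the mark and changed little, with means of 6.63 in PGC and 6.79 in GSC (-0.16, limma adjusted p = 0.456). Without PGC replicate 1, 6 of the 17 fell, and 1914 of all 13009 genes did, against 2543 in the main fit.

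Among 17 measured other transcription factors of endothelial cells, 10 were lower, 1 was higher and 6 did not pass (median -0.44). The shares over all genes were 19.5% lower and 22.5% higher. ETS2 measured 2.59, 3.86 and 3.93 in PGC and 4.99, 5.29 and 5.41 in GSC and, with PGC replicate 1 below the mark, was at least 3.23-fold lower. NR2F2, a factor of veins and of mesenchyme, fell by 1.45 ± 0.32 (SE), the ETS factors ELK3 by 1.40 ± 0.19 and ELF2 by 1.04 ± 0.10, and EPAS1, a hypoxia factor, by 1.16 ± 0.21. The 1 gene that rose was HHEX, a homeobox factor, at 6.77, 6.42 and 6.85 in PGC and 5.99, 6.18 and 6.37 in GSC (0.51 ± 0.13 SE, limma adjusted p = 0.0076), on a sole probe set that can match several transcripts. The sole ELK3 probe set can match several transcripts too. Of further ETS factors, ETV6 fell by 0.44 ± 0.14 (SE), and ELF1 did not pass (0.43, limma adjusted p = 0.0530). ELF1 measured 6.17, 6.20 and 5.62 in PGC and 5.30, 5.57 and 5.89 in GSC. Of the SOXF factors, SOX7 fell by 0.43 ± 0.14 (SE, limma adjusted p = 0.0300), without overlap of the groups. SOX18 (-0.88, limma adjusted p = 0.0990) and SOX17 (0.25) did not pass. Without PGC replicate 1 or 2, 5 of the 17 fell, where 1914 and 2111 of all 13009 genes did, against 2543 in the main fit. Without PGC replicate 3 or GSC replicate 1, 2 rose, where 3321 and 2952 of all genes did, against 2923. ELF1, ETV6, HHEX, SOX7, SOX17 and SOX18 were named after their values were seen.

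**Figure D4:**
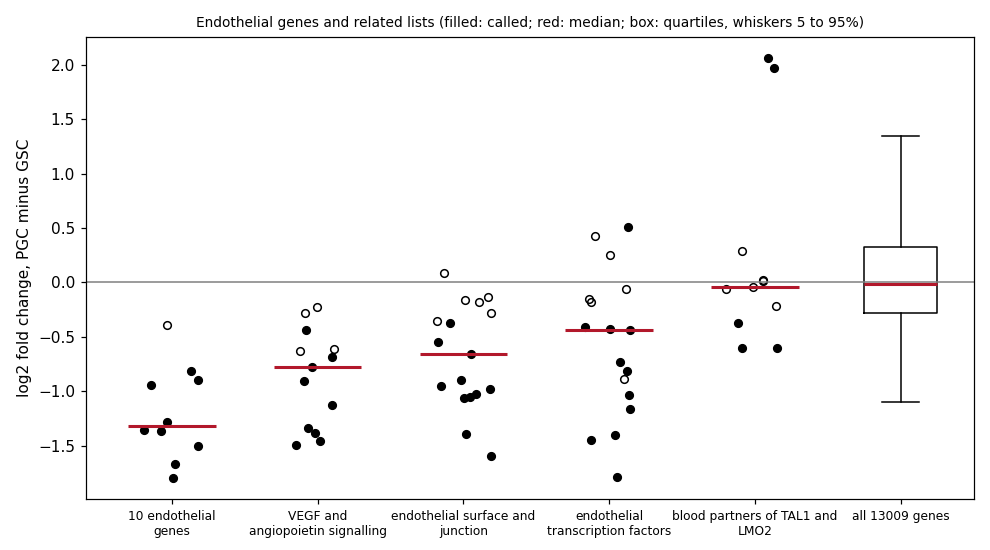
Log2 fold change, PGC minus GSC, of the 10 genes, of 4 related lists and of all 13009 genes (box with quartiles, whiskers from the 5th to the 95th percentile). Filled points were called, and the medians as fitted (red) are -1.31, -0.77, -0.65, -0.44, -0.05 and -0.02 from left to right.

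Of 11 measured partners of TAL1 and LMO2, 3 fell, 2 rose and 6 did not pass, with a median of -0.05. These shares are near the 19.5% of all genes lower and 22.5% higher, so the counts are no result about the partners. The E proteins TCF12 and TCF3, which pair with TAL1, fell by 0.60 each (SE 0.12 and 0.21). TCF4, a further E protein named after its values were seen, did not pass (-0.05, limma adjusted p = 0.835). It averaged 4.71 in PGC and 4.76 in GSC, above the mark on all arrays. The TCF12 probe set used can match several transcripts, and TCF12 fell by 0.94 as the mean of its 4 probe sets. The TCF3 call was lost without PGC replicate 1 or 2 or any GSC array but replicate 3 (limma adjusted p up to 0.195). LMO4 fell by 0.37, but not in fits that lacked PGC replicate 1 or 2 or GSC replicate 6. Each of these fits called 1 of the 11 lower, and 1914, 2111 and 2258 of all 13009 genes. CBFA2T3, a corepressor found in TAL1 complexes, rose by 2.06 ± 0.12 (SE), or by 0.46 as the mean of its 4 probe sets, and LMO1, the close relative of LMO2, rose by 1.97 ± 0.20 on a sole probe set that can match several transcripts. LMO1 measured 6.33, 5.95 and 5.49 in PGC and 3.41, 4.01 and 4.26 in GSC, the opposite order to LMO2. LDB1, the dimerising partner of LMO proteins, GATA2 and RUNX1 were below the mark in all 3 PGC arrays and in at least 5 GSC arrays and did not pass. LYL1 and GATA1 are not listed by the annotation and were not analysed here.

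Some of the 10 genes lie next to each other or to related genes in the RefSeq gene table. FLI1 and ETS1 are neighbours, and both fell. ERG lies beside ETS2, which fell as well. KDR lies beside KIT, the stem cell factor receptor and a germ cell marker, and the neighbours moved in opposite directions: KIT measured 8.67, 8.81 and 7.62 in PGC and 3.88, 4.20 and 4.55 in GSC, a rise of 4.17 ± 0.24 (SE, limma adjusted p = 4.470e-07). EGFL7 lies beside NOTCH1, which rose by 0.82 ± 0.15 (SE). Of 16 measured neighbours outside the 10, 3 fell, 5 rose and 8 did not pass, where 19.5% of all genes fell and 22.5% rose, so these are values of single genes and no result about neighbours. The neighbours were looked up after the values had been seen.

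Markers of other cell types in the gonad were counted by the same rule, where 19.5% of all genes were lower and 22.5% higher. Of 11 gonadal somatic markers 8 fell and 0 rose, with list means of 5.36 to 6.72 over the PGC arrays and 7.37 to 7.58 over the GSC arrays. Of 10 mural cell markers, the cells that wrap vessels, 5 fell and 1 rose (means 3.74 to 4.58 in PGC and 4.60 to 4.82 in GSC), with ABCC9 and KCNJ8, potassium channel subunits of pericytes, down by 2.12 and 1.91, PDGFRB by 1.08 (0.69 as the mean of its 2 probe sets), and ANPEP, a peptidase also found in other epithelia, up by 0.73 (0.45 without PGC replicate 3). Of 11 red cell markers 3 fell, a share near that of all genes, and 0 rose (means 6.94 to 7.66 in PGC and 7.63 to 8.21 in GSC): HEMGN by 1.45, EPB42 by 1.18 and RHAG by 0.77, a call that RHAG lost without any one of 7 of the 9 arrays (-0.41 without PGC replicate 1). The globin HBA1, at 11.98, 12.15 and 12.18 in PGC and 12.27 to 12.39 in GSC, did not pass (-0.22). Of 10 leukocyte and thrombocyte markers 4 fell and 1 rose (means 3.42 to 3.71 in PGC and 3.78 to 4.01 in GSC). PTPRC was at least 2.72-fold lower (log2 fold change -1.49, and -0.82 as the mean of its 3 probe sets), and CSF1R fell by 0.84. The gene that rose was CYBB (0.65, limma adjusted p = 0.0085), at 3.91, 4.05 and 3.23 in PGC and 2.91 to 3.24 in GSC. As fitted, the median log2 fold change was -1.49 for gonadal somatic, -0.42 for mural and -0.59 for red cell markers. It was -0.23 for leukocyte and thrombocyte markers and -0.02 over all genes. Changes of all 11 red cell markers were negative (-1.45 to -0.22). The part of these cell types in the change of the endothelial genes was not tested.

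The genes whose pattern over the 9 arrays was nearest to the mean pattern of the 10, by root mean square difference of values centred on each gene's mean, were REEP5 (0.063), IFNAR2 (0.097), RASSF8 (0.105), TNFAIP6 (0.109) and BASP1 (0.111). REEP5, an endoplasmic reticulum protein, measured 6.37, 7.09 and 7.70 in PGC and averaged 8.27 ± 0.06 (SD, n = 6) in GSC. The 10 genes themselves stood 0.165 (FLT4) to 0.463 (TAL1) from their own mean pattern, at ranks 64 to 1806 among all 13009 genes. Many other genes thus followed the mean pattern more closely than any of the 10 did.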

How the data were processed

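The authors deposited 1 log2 value per probe set and array, which they made with RMA (background correction, normalization between arrays and summary of probes), per the submitters' processing notes. No version of RMA is stated, and the log2 scale was taken from the range of the values. RMA compresses low values, so changes of dim genes are understated. The file held 38535 probe sets. The 96 AFFX controls were left out, and 13009 genes had a probe set with 1 symbol in the platform annotation. All 10 members matched a RefSeq gene identifier (assembly GRCg7b), used for names and neighbours only. The brightest probe set stood for its gene. Array medians lay between 3.03 and 3.12, and the number of arrays limits the precision.

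limma 3.58.1 (lmFit, eBayes; R 4.3.3) was fitted on cell fraction over all 9 arrays, two-sided, with Benjamini-Hochberg adjustment over all 13009 genes (or 38439 probe sets) and calls at an adjusted p under 0.05. SEs are the moderated ones. Where arrays of the dimmer group lay below the reporter mark, they were set at the mark and the fold is given as "at least". That fold is an estimate and not a lower confidence limit. The fit was tested on simulated data in which both fractions had the GSC spread of each probe set. That test therefore does not cover the larger spread among the PGC arrays. The 7 differences within families were added after the values had been seen, as was the 2-fold count with values set at the mark. Named genes were the members, their ligands and partners, up to 5 called genes a list with the largest change, the 5 nearest patterns and checks of the labels. The members and lists were chosen with earlier results of these data known. Alternatives left out each array, used GSC replicates 1 to 3 or 4 to 6, or changed the block, scaling, weights, prior, dim filter or probe set rule.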

Additional observations from a re-analysis of the deposited data

Results flagged for a closer look

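KDR in GSC replicate 1, at 6.52 on the probe set that stood for it, stood apart from the other 5 GSC arrays, which ran from 5.59 to 5.92. Its other probe sets showed this less or not at all. For example, a further KDR probe set measured 5.67 in GSC replicate 1 and 5.53 in replicate 2. Yet another was highest in GSC replicate 2 (5.07, against 4.65 in replicate 1). A pair of blood cell markers had their outlying array in the same preparation: RHAG, a red cell membrane protein, at 6.07 against 5.26 to 5.55, and TUBB1, a tubulin of thrombocytes, at 6.80 against 5.83 to 6.19. NR5A1 in GSC replicate 4, at 6.93, lay below the other GSC arrays (7.20 to 7.32). Each was flagged because the gap to the nearest array took up over 0.625 of the group's range. Chance flags about 1 in 20 groups, and 4 of the 68 named genes were flagged. The groups of 3 PGC arrays were too small to be looked at in this way.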

How the results depend on the processing

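The direction of all 10 genes was the same in the 17 alternatives run. TEK, KDR, FLT1 and LMO2 kept their call in all 17. FLI1 and ERG lost it with GSC replicates 1 to 3 alone (limma adjusted p = 0.0514 and 0.107), ETS1 and EGFL7 with either set of 3 GSC arrays, FLT4 in 4 alternatives and EGFL7 also under the replicate block. ENG and CLDN5 also lost their calls with either set of 3 GSC arrays. With the mean of all probe sets FLT1 was -0.46 and ETS1 -0.54. The members called numbered 9 to 10 when single arrays were left out, 4 with GSC replicates 1 to 3 only and 7 under the replicate block. Genes called lower and higher over all 13009 numbered 1531 and 1863 with GSC replicates 1 to 3 only. They numbered 1784 and 2188 with GSC replicates 4 to 6 only, and 1287 and 1845 under the replicate block. With single arrays left out they numbered 1914 to 2983 and 2298 to 3321. Leaving out single arrays gave 5 to 10 VEGF and angiopoietin genes lower, 6 to 12 surface and junction genes lower, 5 to 12 endothelial transcription factors lower and 1 to 2 higher, and 1 to 3 partners of TAL1 and LMO2 lower. With GSC replicates 1 to 3 only, 3 surface and junction genes and 5 transcription factors were lower, 0 transcription factors higher and 1 partner lower. With GSC replicates 4 to 6 only these were 6 and 5 lower and 1 partner lower. Under the replicate block they were 3 and 5 lower, 0 higher and 0 partners lower. With array weights 6 transcription factors were lower, and 2 were higher with dim probe sets left out or with the mean of all probe sets. Using 3 GSC arrays leaves fewer arrays in the fit, and for the other settings the cause was not tested. Whether the replicate numbers pair PGC with GSC arrays is not stated. Deviations of same-numbered PGC and GSC arrays correlated at 0.19, -0.13 and -0.01, and those of differently numbered arrays at -0.20 to 0.25. With 3 arrays a group these values cannot settle the question.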
